A study of Mus musculus with 8 samples.

Results

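The cytosolic ribosomal protein genes were compared between the 2 myeloid populations of mouse brain tumors. They were taken from the deposited count table as protein-coding genes with an Rpl or Rps name followed by a digit, plus Rplp0, Rplp1, Rplp2 and Rpsa, without the Rps6 kinases. The rule gave 92 of 55450 genes in the table, 57 named for the large subunit and 35 for the small subunit. It used names only and no measured value. It also took in Rps19bp1, which encodes a binding protein of Rps19 and not a ribosomal protein, and 6 gene models whose names mark them as pseudogenes although the table types them as protein-coding. All tumors were of GL261, a glioma line of the mouse, placed in the brain; the genotype label of every library was WT. Microglia, the resident macrophages of the brain, gave 3 libraries (sorted as F4/80+, CD11b+, CD45 low, CD49d low or negative). Bone marrow-derived macrophages (BMDM), which enter the tumor from the blood as monocytes, gave 5 libraries (F4/80+, CD11b+, CD45+, CD49d high). Both gates were Ly6C low or negative and Ly6G negative, and neither group received a further treatment. No age was given. Since no label ties a library to a mouse of its own, the p-values reflect how much these libraries vary, which may be technical.

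Ribosomal proteins assemble with ribosomal RNA into the small subunit, which reads the mRNA, and the large subunit, which joins the amino acids. Cells make them in near-equal amounts, and their mRNAs are among the most abundant of a cell. Most of these mRNAs begin with a pyrimidine-rich 5′ terminal oligopyrimidine (TOP) motif, through which mTORC1 and the RNA-binding protein LARP1 control their translation as a group. MYC raises transcription of many of them. In macrophages the ribosome content follows growth and the demand for secreted proteins.

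Libraries were QuantSeq 3′ tags, in which 1 read is made near the 3′ end of a polyadenylated transcript, so counts do not scale with transcript length. Totals ran from 5890406 to 16659154 counts. A gene model lying over ribosomal RNA, Gm42418, made up 34.0% to 47.0% of microglia counts. Its share was 14.8% to 19.8% for BMDM 1 to 3, but 41.2% for BMDM 4 and 48.9% for BMDM 5. With libraries thinned to 4151079 counts without Gm42418 and mitochondrial rRNA, BMDM 4 and BMDM 5 held 13343 and 14549 genes, against 17322 to 21926 in the other 6 libraries. BMDM 4 and BMDM 5 therefore stand apart from BMDM 1 to 3, and results are given with all 8 libraries and with replicates 1 to 3 of each group. Microglia 3 had the highest Gm42418 share (47.0%) and the fewest genes (17322) of the microglia, and was kept in both. BMDM 4 and BMDM 5 also had the lowest ribosomal protein shares of BMDM (2.82% and 1.92%), so results with replicates 1 to 3 depend on leaving them out. Of 9 microglia markers 6 were lower in BMDM, and of 9 markers of monocyte-derived macrophages 7 were higher, which matches the labels.

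Ribosomal protein genes held 3.35%, 3.06% and 1.55% of all counts of microglia 1, 2 and 3. For BMDM 1 to 5 their share was 7.69%, 9.61%, 6.26%, 2.82% and 1.92%. BMDM 1 to 3 lay above every microglia library, BMDM 4 and BMDM 5 lay within the microglia range, and microglia 3 was the lowest of all. The mean share was 2.66% ± 0.966 (SD, n = 3) in microglia and 5.66% ± 3.25 (SD, n = 5) in BMDM, a ratio of 2.13, or 2.96 with BMDM 1 to 3 alone (7.85% ± 1.68, SD, n = 3). Without Gm42418 and mitochondrial rRNA in the total, the shares were 5.42%, 5.74% and 3.04% in microglia and 10.2%, 13.02%, 7.79%, 5.10% and 3.88% in BMDM. The order of the groups was the same on this scale, and the ratio fell to 1.69. In these bulk libraries fewer cells of a type and less RNA per cell cannot be told apart.

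**Figure D1:**
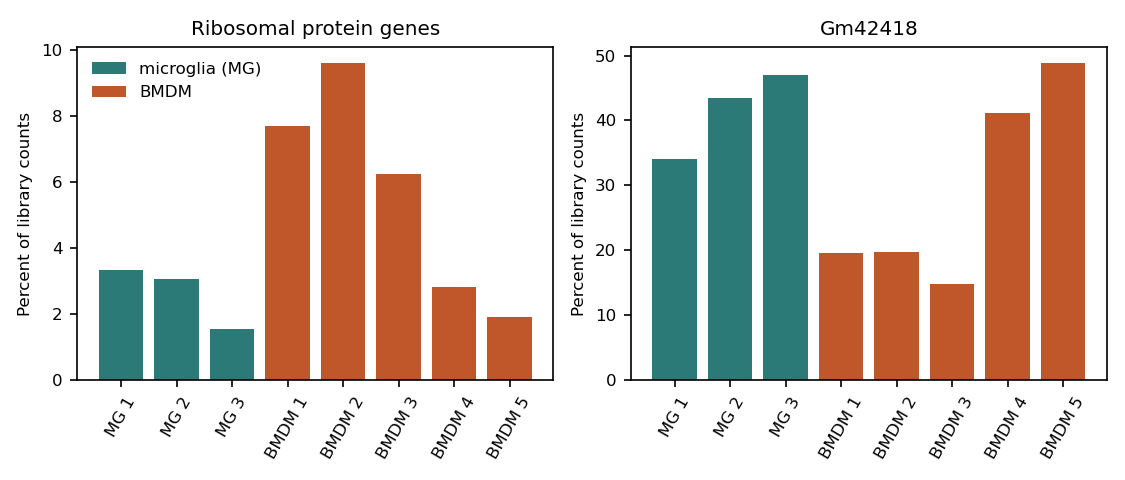
Percent of each library's counts taken by the 92 ribosomal protein genes (left panel) and by the rRNA-overlapping gene model Gm42418 (right panel), 1 bar per library, microglia (MG) in green and BMDM in orange. The 3 BMDM libraries with 6.26% to 9.61% of ribosomal protein counts are the 3 with under 20% Gm42418, and BMDM 4 and 5 lie near microglia in both measures.

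The large subunit's genes held 46.9% to 48.3% of the ribosomal protein counts in microglia and 48.7% to 55.2% in BMDM. The groups did not overlap in this ratio between subunits, although BMDM 4 (48.7%) and BMDM 5 (48.9%) were close to microglia 1 (48.3%). The 10 genes with the most counts in a library held 38.3% to 43.3% of its ribosomal protein counts in 7 libraries and 53.1% in BMDM 5, where the family was least even. Of the 92 genes, 91 had a count in some library and 84 had one in all 8.

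With all 8 libraries, no ribosomal protein gene passed the test in either direction. The quasi-likelihood test of edgeR, Benjamini-Hochberg adjusted over all genes with a threshold of 0.05, called 0 of the 87 members tested higher and 0 lower in BMDM. Among all 16467 genes tested it called 1.11% higher and 0.814% lower. Before adjustment 29 were higher and 0 lower at p under 0.05, against 6.49% and 7.27% of all genes. Fold changes were positive for 76 of 87, with a median log2 fold change of 0.82, against 0.08 over all genes tested. DESeq2 on the same libraries called 12 higher and 0 lower (against 3.66% and 1.94% of all genes), among them Rplp1, Rplp2, Rps14 and Rpl28. The edgeR test with no filter on low counts called 14 higher and 0 lower (against 1.29% and 1.02%). With limma-voom 1 was higher, Rplp2, and 0 lower (against 0.972% and 1.62%), and with limma-voom's sample quality weights, which count libraries that stand apart for less, 43 were higher and 2 lower (against 6.46% and 10.2%).

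The libraries within BMDM were ordered alike for most genes. BMDM 2 was the highest of all 8 libraries in 74 of the 87 genes, and BMDM 5 was the lowest in 40. BMDM 4 and BMDM 5 both lay below BMDM 1 to 3 in 58 genes. BMDM 5 lay below every microglia library in 46 genes and above every one in 14. Within microglia, replicate 3 was the lowest in 68 genes. These orders were not counted over all genes, so whether they are particular to the family was not tested. Mean log2 CPM (library counts scaled to a common total with TMM factors) over the 87 genes was 7.34, 7.42 and 6.67 in microglia 1 to 3 and 8.21, 8.75, 8.04, 7.40 and 6.47 in BMDM 1 to 5. Each gene's mean over the 8 libraries was then subtracted, followed by each library's mean over the 87 genes. The deviations left varied least among genes for microglia 1 (SD 0.44) and microglia 2 (SD 0.39). Their SD lay between 0.63 and 0.74 for BMDM 1 to 4. It was larger for microglia 3, at 0.86, and largest for BMDM 5, at 1.11.

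**Figure D2:**
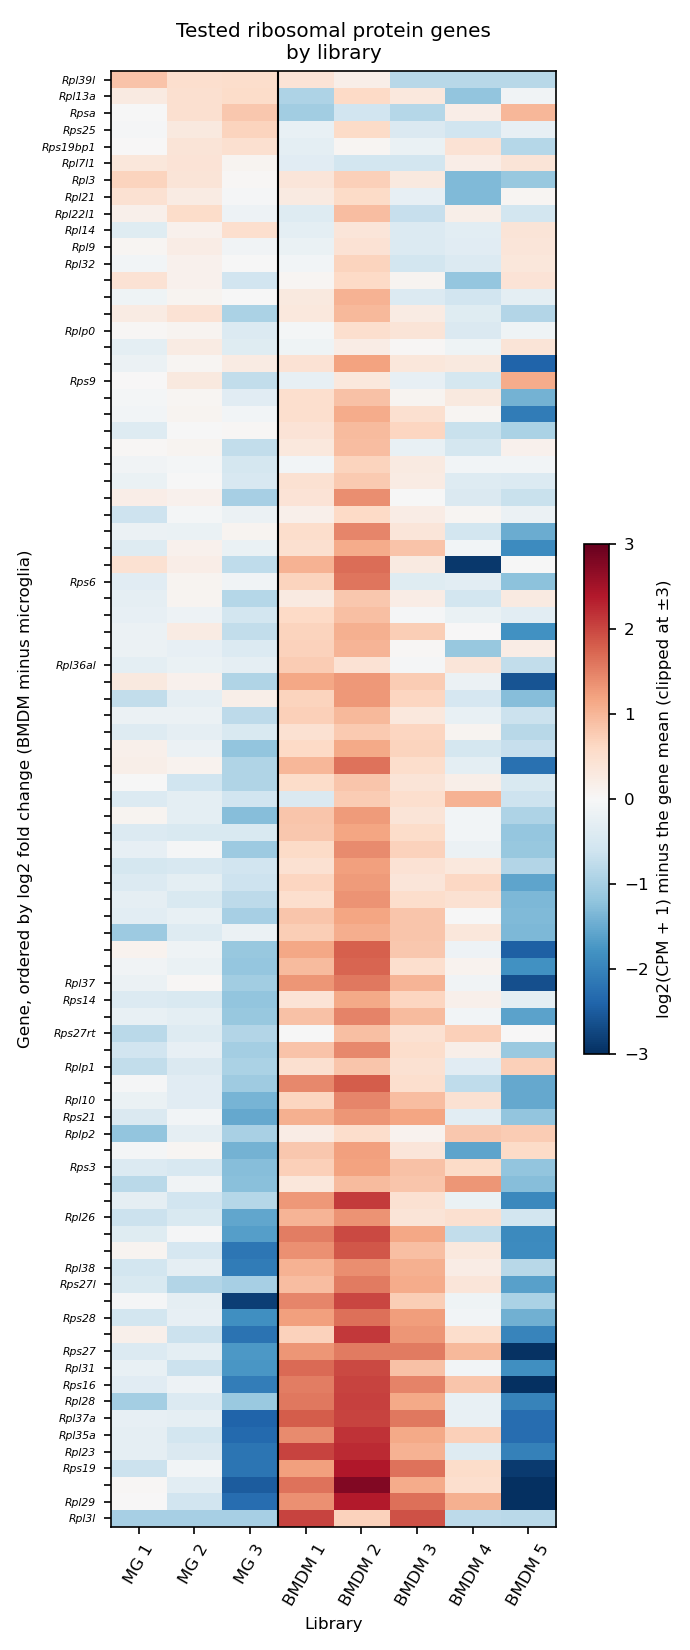
Level of each of the 87 tested ribosomal protein genes in each library, as log2(CPM + 1) minus the gene's mean over the 8 libraries, colored from blue (low) to red (high) and clipped at 3 either way. Genes are ordered by log2 fold change; BMDM 1 to 3 are red in most rows, microglia 3 and BMDM 5 are blue in the lower rows, some rows carry a gene name, and the top rows, with Rpl39l, Rpl13a and Rpsa, run the other way.

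With BMDM 5 left out, part of the family passed the test. In that fit 20 genes were higher and 0 lower, against 3.38% and 3.79% of all genes. The fit differs from the one with replicates 1 to 3 only by adding BMDM 4, so calls shared by both are not independent. All 20 genes were also called with replicates 1 to 3. Among them were Rpl10, Rpl26, Rpl28, Rpl29, Rpl31, Rpl35a and Rpl38 of the large subunit and Rps16, Rps19, Rps27, Rps28 and Rps3 of the small subunit. Leaving out any other single library gave 0 calls, with medians from 0.59 (without BMDM 2) to 0.94 (without microglia 1).

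With replicates 1 to 3 of each group, 46 of 87 genes rose in BMDM and 1, Rpsa, fell. Among all 16182 genes tested there, 6.35% were higher and 8.11% lower. BMDM 4 and BMDM 5, left out here, had the lowest ribosomal protein shares of BMDM (2.82% and 1.92%), so these counts depend on that choice. The rises ran up to 2.65 (Rpl29) on the log2 scale, with Rpl3l above them, and the median over all 87 was 1.17 against 0.09 over all genes. They took in 28 of 53 large-subunit and 18 of 34 small-subunit genes. Of these 47 calls, 37 held without microglia 1, 26 without microglia 2, 38 without microglia 3, 36 without BMDM 1, 24 without BMDM 2 and 42 without BMDM 3. The higher calls numbered 26 without microglia 2 and 23 without BMDM 2. In these 6 libraries the groups also did not overlap in their share of Gm42418, so cell type and whatever sets that share cannot be told apart. BMDM 5 lay below every microglia library for 29 of the 47, a count that was not made over all genes.

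Rpl28, a large-subunit protein, had 87.8, 135 and 82.8 CPM in microglia 1 to 3 and 541, 739, 394, 152 and 43.8 CPM in BMDM 1 to 5. Only BMDM 5 fell below the microglia range, and BMDM 4 lay just above it. With all libraries the log2 fold change was 1.88 ± 0.70 (SE, adjusted p = 0.220), and with replicates 1 to 3 Rpl28 rose by 2.46 ± 0.34 (edgeR adjusted p = 0.00177), a call that held whichever of the 6 libraries was left out. Rpl37a had 852, 838 and 189.5 CPM in microglia and 3545, 4148, 3047, 869 and 209 CPM in BMDM. BMDM 4 was close to microglia 1 and 2, and BMDM 5 to microglia 3. Its rise with replicates 1 to 3 was 5.71-fold (log2 2.51 ± 0.52, edgeR adjusted p = 0.00986). Rpl23 had 436, 390.4 and 114 CPM in microglia against 2136, 2501, 1096, 406 and 128 CPM in BMDM, so BMDM 4 and 5 fell inside the microglia range. It rose 6.10-fold with replicates 1 to 3 (edgeR adjusted p = 0.00815).

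Rpl29 and Rpl35a, also of the large subunit, were likewise highest in BMDM 2. Rpl29 was a low-count gene, with 14.7, 9.45 and 2.23 CPM in microglia, 39.3, 81.0, 47.8 and 32.0 CPM in BMDM 1 to 4, and 0.276 CPM in BMDM 5. Its log2 fold change was 2.18 ± 0.99 with all libraries (edgeR adjusted p = 0.341) and 2.48 ± 0.58 without BMDM 5 (edgeR adjusted p = 0.0259). Rpl35a, mutated in some people with Diamond-Blackfan anemia, had 134, 109.7 and 31.6 CPM in microglia and 436, 736, 358, 268 and 32.3 CPM in BMDM. BMDM 1 to 4 were all above every microglia library for both genes, and BMDM 5 was below the lowest for Rpl29 and close to it for Rpl35a. Rpl35a rose 5.55-fold with replicates 1 to 3 (edgeR adjusted p = 0.00911). Rpl37 had the second highest mean level over all libraries, with 1356, 1572 and 739 CPM in microglia and 3809, 4614, 3089, 1435 and 246 CPM in BMDM, and rose 3.15-fold with replicates 1 to 3 (edgeR adjusted p = 0.0147, a call lost without BMDM 2).

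In the small subunit, Rps19, the protein most often mutated in Diamond-Blackfan anemia, had 167, 249 and 56.7 CPM in microglia and 613, 1384, 817, 383 and 34.7 CPM in BMDM. BMDM 1 to 4 were above every microglia library, and BMDM 5 was below all of them. The log2 fold change was 2.04 ± 0.83 with all libraries (edgeR adjusted p = 0.280) and 2.58 ± 0.52 with replicates 1 to 3 (edgeR adjusted p = 0.00865). Rps21 had the most counts of the family, with 1309, 1675 and 612 CPM in microglia and 3710.0, 4469, 4014, 1435 and 780.0 CPM in BMDM. It rose 3.40-fold with replicates 1 to 3 (edgeR adjusted p = 0.0149). Rps14 was at 1029, 1002 and 605 CPM in microglia and 1832, 3012, 2127, 1522 and 1117 CPM in BMDM, so that here no BMDM library fell into the microglia range.

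Such separation of all 8 libraries was found in few genes, and upward it was near the share of all genes. In 5 genes every BMDM library was above every microglia library (Rplp1, Rplp2, Rps14, Rps27rt and Rpl3l), where 4.32% of all genes tested did so. For Rpl3l, BMDM 4 and BMDM 5 were above microglia by 1 count against 0. In 1 gene, Rpl39l, every BMDM library was below, where 8.66% of all genes tested were, though only by 1.33 CPM in BMDM 1 against 1.51 CPM in microglia 2. With replicates 1 to 3 the counts were 63 above and 3 below (Rpsa, Rpl39l and Rpl7l1), against 19.7% and 19.9% of all genes.

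Rplp0, Rplp1 and Rplp2 form the acidic stalk of the large subunit, which recruits the elongation factors, and they differed among themselves. Rplp1 had 1079, 1335 and 936 CPM in microglia and 2527, 3244, 2500.0, 1422 and 2959 CPM in BMDM. Rplp2 had 533, 994 and 616 CPM in microglia and 1412, 1751, 1287, 2101 and 2045 CPM in BMDM. For both, BMDM 5 stayed with the other BMDM libraries, unlike most of the family. The log2 fold changes with all libraries were 1.18 ± 0.43 for Rplp1 (edgeR adjusted p = 0.212) and 1.27 ± 0.42 for Rplp2 (edgeR adjusted p = 0.166). With replicates 1 to 3 Rplp1 rose by 1.31 ± 0.31 (edgeR adjusted p = 0.0182, lost without microglia 1, microglia 2 or BMDM 2), while Rplp2 at 1.07 ± 0.33 just missed the threshold (edgeR adjusted p = 0.0538). Rplp0, the scaffold on which the other 2 sit and a common reference gene in quantitative PCR, had 252, 259 and 185 CPM in microglia and 234, 347, 321, 182 and 225 CPM in BMDM. Its groups overlapped throughout, and its log2 fold change was 0.17 ± 0.36 (edgeR adjusted p = 0.913).

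Rpsa, a small-subunit protein that was first described as a laminin receptor, ran against the family. It had 246, 349.7 and 440.3 CPM in microglia, 120.1, 168 and 139 CPM in BMDM 1 to 3, and 288 and 501 CPM in BMDM 4 and BMDM 5. BMDM 1 to 3 lay below every microglia library, whereas BMDM 5 was the highest of all 8. Rpsa fell by 1.26 ± 0.29 on the log2 scale with replicates 1 to 3 (edgeR adjusted p = 0.0161, lost without microglia 2 or BMDM 1), and its log2 fold change was -0.51 ± 0.47 with all libraries (edgeR adjusted p = 0.751). Few other genes had negative fold changes with all libraries: Rpl39l, Rpl13a, Rps25, Rps19bp1, Rpl7l1, Rpl3, Rpl21, Rpl22l1, Rpl14 and Rpl9, and none of these passed the test. Rps25, which is needed for translation from several viral internal entry sites, had 606, 768 and 992 CPM in microglia and 533, 929, 462, 409 and 528 CPM in BMDM. Its groups overlapped through BMDM 2 alone. Rpl3, at the peptidyl transferase centre, was at 236, 196 and 152 CPM in microglia, 191, 246 and 182 CPM in BMDM 1 to 3, and 58.9 and 66.8 CPM in BMDM 4 and BMDM 5, so its negative fold change came from the last pair of libraries.

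**Figure D3:**
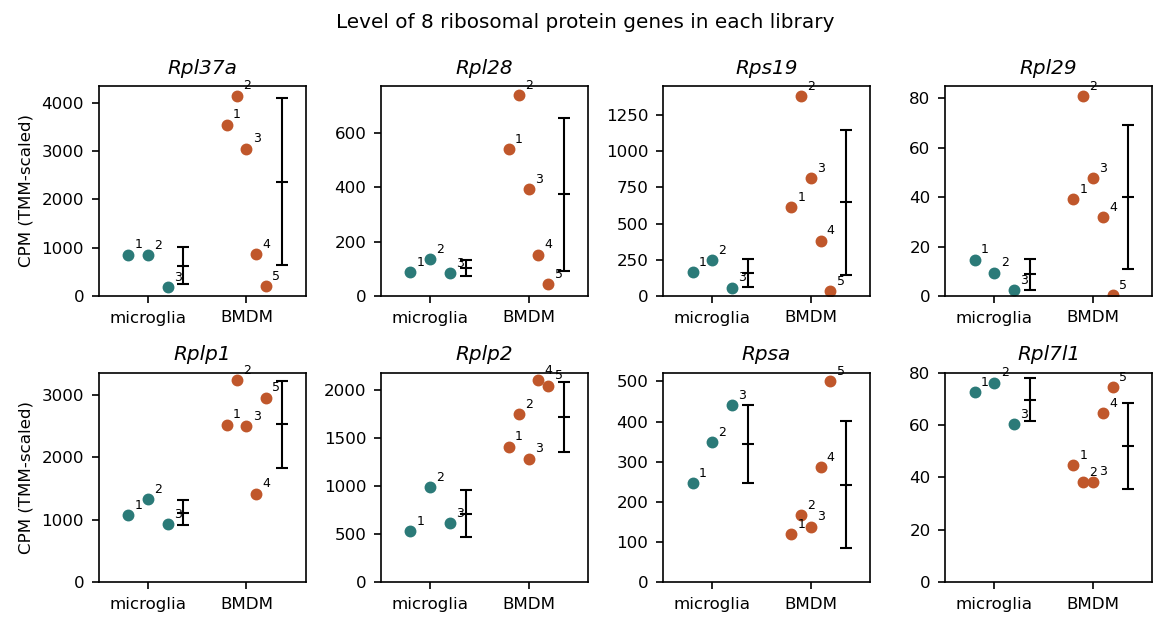
CPM of 8 ribosomal protein genes in each library, numbered by replicate, with the group mean and SD beside the points (microglia n = 3, BMDM n = 5). Rpl37a, Rpl28, Rps19 and Rpl29 are high in BMDM 1 to 3 and at or below the microglia level in BMDM 5, Rplp1 and Rplp2 are higher in every BMDM library, and Rpsa and Rpl7l1 are lowest in BMDM 1 to 3.

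Several members are paralogs, duplicated genes whose products may take the place of the common protein. Rpl3l, the form of Rpl3 found in heart and skeletal muscle, had 0 counts in all 3 microglia libraries and 54, 18, 57, 1 and 1 counts in BMDM 1 to 5. Pooled over each group, BMDM had an at least 43.7-fold higher level, with the microglia set at a floor of 3 counts over the group. This bound rests on BMDM 1 to 3 and does not hold for BMDM 4 and BMDM 5, at 0.159 and 0.138 CPM. Rpl3l passed the count filter only through BMDM 1 to 3. It was called with replicates 1 to 3 (edgeR adjusted p = 0.00773), but not with all libraries (edgeR adjusted p = 0.139). Rps27l, a paralog of Rps27 that p53 induces, had 50.3, 37.6 and 34.7 CPM in microglia and 134, 209, 153, 90.3 and 21.8 CPM in BMDM, and rose 4.06-fold with replicates 1 to 3 (edgeR adjusted p = 0.00194) and 3.58-fold without BMDM 5 (edgeR adjusted p = 0.0101). Rps27 itself had 422, 454 and 168 CPM in microglia and 1399, 1641, 1640.0, 1107 and 71.5 CPM in BMDM, so that for both genes BMDM 1 to 4 were above every microglia library and BMDM 5 below. It rose 4.49-fold with replicates 1 to 3 (edgeR adjusted p = 0.00588).

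Rpl7l1, a relative of Rpl7 that acts in assembly of the large subunit, had 72.5, 76.1 and 60.4 CPM in microglia, 44.6, 38.2 and 38.4 CPM in BMDM 1 to 3, and 64.6 and 74.4 CPM in BMDM 4 and BMDM 5. As for Rpsa, only BMDM 1 to 3 were below microglia, and the log2 fold change of -0.78 ± 0.24 with replicates 1 to 3 did not pass (edgeR adjusted p = 0.0561). Rpl22l1, the paralog of Rpl22, overlapped between groups, with 59.2, 78.4 and 47.6 CPM in microglia and 32.4 to 102 CPM in BMDM. Rpl36al was listed near the detection limit, at 2.94 to 3.22 CPM in microglia and 1.94 to 7.19 CPM in BMDM. An exon of the gene model Gm49383 overlaps it on the same strand. Rpl39l, the testis form of Rpl39, was lower still, at 1.51 to 2.21 CPM in microglia, 1.33 and 0.985 CPM in BMDM 1 and 2, and 0 counts in BMDM 3 to 5. Rpl10l, the testis form of Rpl10, had 0 counts in all 8 libraries. Besides Rpl10l, 4 members were too low to test: Rpl24, Rpl36-ps4, Rpl9-ps1 and Rps12-ps3.

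Some core ribosomal protein genes were listed at unusually few counts for this family, and they are named here after their values were seen. Rpl24 had 0 to 9 counts per library. Rps6, the S6 kinase substrate, had 10.8 to 14.8 CPM in microglia and 5.39 to 44.3 CPM in BMDM. Ribosomal protein genes have many processed pseudogenes, and no source used here says how reads matching several places were counted, so the level of each member is less certain than that of a single-copy gene. Rows with an Rpl or Rps name that are typed as pseudogenes held counts equal to 2.70% to 4.79% of the members' counts. Pseudogenes under other names were not counted. Adding the pseudogenes of the same name to each gene moved the median log2 fold change from 0.82 to 0.89, again with 0 calls. An exon of another gene on the same strand overlapped 28 of the 92 genes, mostly a small nucleolar RNA or a miRNA, and one on the opposite strand overlapped 19. Same-strand overlaps included Rpl24 with Gm28037, Rpl36al with Gm49383, Rps10 with RPS10-NUDT3 and Rpl13a with Gm45713. The part of these overlaps in the low counts was not tested, so few counts there may not mean a low level.

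When libraries were instead scaled to equal totals of ribosomal protein counts, genes were compared with the family's total. That total is weighted toward the members with the most counts, and a rise of some members in it brings a fall of others. Calls under this scaling were not repeated with single libraries left out. With all 8 libraries 0 were then higher and 0 lower (against 0.279% and 1.49% of all genes), and the median was -0.06, against -0.67 over all genes. With replicates 1 to 3 the scaling moved the median of all genes to -1.20, and 7 genes were higher than the family (against 1.38% of all genes) and 12 lower (against 37.3% of all genes). The 7 were Rpl28, Rpl35a, Rpl37a, Rps19, Rpl23, Rpl29 and Rpl3l. The 12 were Rpsa, Rpl7l1, Rps19bp1, Rps25, Rpl13a, Rpl14, Rpl22l1, Rpl9, Rpl21, Rpl32, Rps9 and Rpl3. Rpsa was lowest, at -2.66 ± 0.50 (edgeR adjusted p = 0.00119), followed by Rpl7l1 at -2.04 ± 0.43 (edgeR adjusted p = 0.00220) and Rps19bp1 at -1.81 ± 0.47 (edgeR adjusted p = 0.00649). Rpl37a was higher than the family by 1.36 ± 0.50 (edgeR adjusted p = 0.0429), and Rps19 by 1.37 ± 0.48 (edgeR adjusted p = 0.0342). With all libraries the scaling shifts genes down as a whole, and positive fold changes fell from 76 to 39 of 87, Rplp0 going to -0.59 and Rpl36al to -0.26.

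The genes of short proteins had the larger fold changes. Over the 87 genes, Spearman's rho between log2 fold change and coding length was -0.33 with all libraries and -0.31 with replicates 1 to 3, a description across genes of the same libraries. Among the 29 genes with 75 to 390 coding nucleotides the median log2 fold change was 1.16, and 19 were higher with replicates 1 to 3. Among the 30 with 396 to 576 nucleotides the median was 0.95 and 18 were higher, and among the 28 with 582 to 1257 nucleotides it was 0.55, with 9 higher and 1 lower. Other protein-coding genes had a like order, with rho -0.18 over 12630 genes and medians of 0.63, 0.28 and 0.05 in the same length ranges and -0.20 above them. With replicates 1 to 3, 168 of 599 of these other genes were higher and 12 lower in the shortest range. In the middle range 140 of 854 were higher and 45 lower, and in the longest 319 of 4082 were higher and 273 lower. Each gene's mean over all libraries was removed, and after it each library's mean over the family. The deviation left rose with coding length in microglia 1 to 3 (rho 0.30, 0.21 and 0.25) and in BMDM 5 (0.20). It fell with length in BMDM 1 to 4 (-0.28, -0.23, -0.22 and -0.13). A gene's deviations balance out over the libraries, so a rise in some libraries brings a fall in others. The sign of rho moved with the family's share of the library, except in BMDM 4. It does not say that long genes lay above the family mean in microglia, and the part of length in the result was not tested. Against mean log2 CPM, rho was 0.08.

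**Figure D4:**
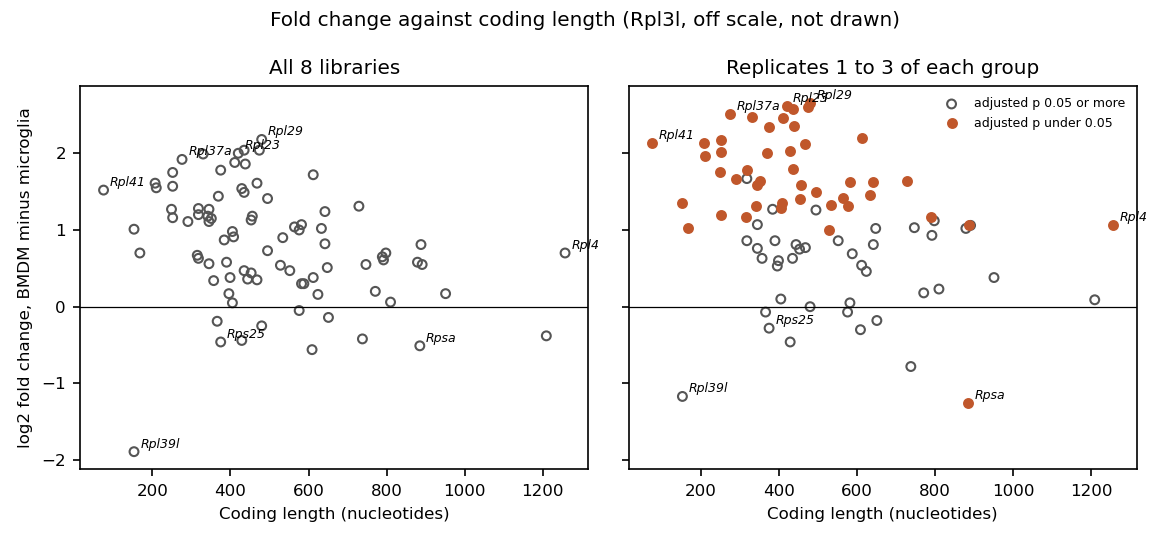
Log2 fold change (BMDM minus microglia) of 86 ribosomal protein genes against coding length in nucleotides, with all 8 libraries (left) and with replicates 1 to 3 (right); filled points have an adjusted p under 0.05 by edgeR's quasi-likelihood test, and Rpl3l is off scale and not drawn. Points of the shortest genes lie mostly above 1 and those of the longest near 0.55, the medians being 1.16, 0.95 and 0.55 from the shortest to the longest tercile on the left.

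Start sites of 12 members are shown because the family is known for its TOP starts and because the results above turn on these genes. Rpl23, Rpl28, Rpl35a, Rpl37a, Rps19, Rps27 and Rpl3l rose with replicates 1 to 3, and Rpsa, Rps25, Rpl14, Rpl13a and Rpl7l1 were lower than the family. Each is RefSeq sequence of GRCm38.p6 on the gene's strand, 30 bases before and 20 from the annotated start. CTTT, the first bases of a typical TOP mRNA, is in capitals where it lies within 10 bases either side of that start, which was so in 2 of the 12, Rpl28 and Rps27. The genes were picked with their values known, and no relation between the motif and the change can be read from so few.
Rpl23 (chr11:97782420-97782469, minus strand): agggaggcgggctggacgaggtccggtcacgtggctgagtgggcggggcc
Rpl28 (chr7:4792935-4792984, plus strand): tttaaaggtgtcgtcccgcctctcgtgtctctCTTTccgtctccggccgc
Rpl35a (chr16:33056423-33056472, plus strand): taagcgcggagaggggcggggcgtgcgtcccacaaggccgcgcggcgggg
Rpl37a (chr1:72711230-72711279, plus strand): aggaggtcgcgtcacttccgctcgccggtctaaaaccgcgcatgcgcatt
Rps19 (chr7:24884562-24884611, plus strand): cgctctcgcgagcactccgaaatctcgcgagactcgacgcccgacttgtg
Rps27 (chr3:90213629-90213678, minus strand): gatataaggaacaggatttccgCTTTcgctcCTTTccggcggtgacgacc
Rpsa (chr9:120127736-120127785, plus strand): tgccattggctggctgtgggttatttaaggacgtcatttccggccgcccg
Rps25 (chr9:44407684-44407733, plus strand): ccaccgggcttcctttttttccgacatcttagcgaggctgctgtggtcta
Rpl14 (chr9:120571487-120571536, plus strand): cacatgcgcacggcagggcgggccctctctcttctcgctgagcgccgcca
Rpl13a (chr7:45128726-45128775, minus strand): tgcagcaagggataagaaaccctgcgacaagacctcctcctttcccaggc
Rpl3l (chr17:24727796-24727845, plus strand): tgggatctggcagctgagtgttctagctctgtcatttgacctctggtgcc
Rpl7l1 (chr17:46782637-46782686, minus strand): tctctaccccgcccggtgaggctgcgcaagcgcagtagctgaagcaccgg

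RefSeq windows of 250 bases before to 50 after a start were found for 66 of the 92 genes, with 78 windows in all, among 32851 windows of all genes. CTTT near the start on the transcript's strand was in 17 of the 78 windows (21.8%), against 7.83% of all windows. On the opposite strand it was in 4 (5.13%), against 7.36%. The longer CTTTC, which contains CTTT, was in 12 (15.4%), against 2.44%. Motifs of 2 factor families known at such promoters were searched in the whole window on both strands: CCGGAAG, an ETS and GABP motif, in 27 (34.6%, against 8.86%), and ATGGCG, the core of the YY1 motif, in 24 (30.8%, against 8.93%). CTTT near the start was in 10 of the 35 genes with a window that were higher with replicates 1 to 3 (28.6%) and in 7 of the 29 others tested (24.1%). A match of letters is a description of the annotated start, which may differ from the start used in these cells.

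Other genes of the translation machinery were looked at beside the family, with no test of the difference between lists. No gene of these lists passed with all 8 libraries. Of 76 mitochondrial ribosomal protein genes tested, which build the separate ribosome of mitochondria, 15 rose and 1 (Mrpl45) fell with replicates 1 to 3, against the 6.35% and 8.11% of all genes, and the median log2 fold change was 0.36 with all libraries and 0.54 with replicates 1 to 3. Mrpl52 had 60.9, 63.9 and 31.2 CPM in microglia and 218, 245, 250.3, 89.5 and 83.5 CPM in BMDM, higher in every BMDM library. It rose 4.58-fold with replicates 1 to 3 (edgeR adjusted p = 0.00225). Of 18 elongation factors and other TOP mRNAs, 1 rose (Tpt1, the translationally controlled tumor protein) and 1 fell (Eif3e) with replicates 1 to 3, and the medians were -0.06 and -0.22. Tpt1 had 141, 141 and 57.9 CPM in microglia and 251, 450.2, 299, 169.8 and 88.7 CPM in BMDM, with BMDM 2 the highest and microglia 3 the lowest. Eef1a1, which brings aminoacyl-tRNA to the ribosome, had a log2 fold change of 0.00 ± 0.47, and Eef2, which moves the ribosome along the mRNA, of -0.17 ± 0.35, both far from passing (edgeR adjusted p = 1.00 and 0.910).

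Fau, which encodes the small-subunit protein eS30 as a fusion and so falls outside the naming rule, had 472, 646 and 598 CPM in microglia and 800.0, 1061, 955, 2019 and 1914 CPM in BMDM. Every BMDM library was above microglia, with the highest levels in BMDM 4 and BMDM 5, the reverse of most ribosomal proteins within BMDM (log2 fold change 1.24 ± 0.45, edgeR adjusted p = 0.210). Rack1, a scaffold on the small subunit, had 764, 816 and 692 CPM in microglia and 318, 552, 439.6, 599 and 829.9 CPM in BMDM. Its log2 fold change of -0.47 ± 0.39 did not pass (edgeR adjusted p = 0.713).

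For the lists that follow, counts are with replicates 1 to 3, where 6.35% of all genes were higher and 8.11% lower. Translation initiation factors had 4 higher (Eif2b2, Eif3g, Eif3k and Eif5a) and 1 lower (Eif5) of 30, with a median of 0.01 over all libraries. Ribosome biogenesis genes, which make and process ribosomal RNA, had 0 higher and 5 lower of 45 (Nop14, Nop56, Npm1, Pes1 and Wdr12), with medians of -0.33 with all libraries and -0.38 with replicates 1 to 3. Npm1, a nucleolar chaperone, fell by 1.47 ± 0.39 on the log2 scale with replicates 1 to 3 (edgeR adjusted p = 0.0281). Regulators of ribosomal protein synthesis in the mTORC1, MYC and LARP1 list had 3 higher (Eif4ebp1, Max and Mxd1) and 5 lower (Larp4, Myc, Rps6kb1, Ssb and Tial1) of 22. Myc had 25.8, 36.7 and 27.9 CPM in microglia and 1.73, 4.43, 5.15, 4.78 and 17.1 CPM in BMDM. It was below microglia in every BMDM library, and fell by 2.98 ± 0.44 with replicates 1 to 3 (edgeR adjusted p = 0.00229) and by 2.91 ± 0.45 without BMDM 5 (edgeR adjusted p = 0.00390), while with all libraries its adjusted p was 0.0842. Larp1 had a log2 fold change of -0.26 ± 0.38 (edgeR adjusted p = 0.862).

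With replicates 1 to 3 (6.35% of all genes higher and 8.11% lower), ribosome quality control and dormancy genes had 0 higher and 2 lower (G3bp1 and Nemf) of 12. Small nucleolar RNA host genes, which carry TOP starts of their own, had 2 higher (Snhg8 and Zfas1) and 0 lower of 9, with medians of 0.30 with all libraries and 0.62 with replicates 1 to 3. Zfas1 had 153, 182 and 56.5 CPM in microglia and 405, 637, 353, 155 and 134 CPM in BMDM, with BMDM 1 to 3 above every microglia library and BMDM 4 and BMDM 5 within their range. Calls in these lists were not repeated with single libraries left out of the fit with replicates 1 to 3.

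**Figure D5:**
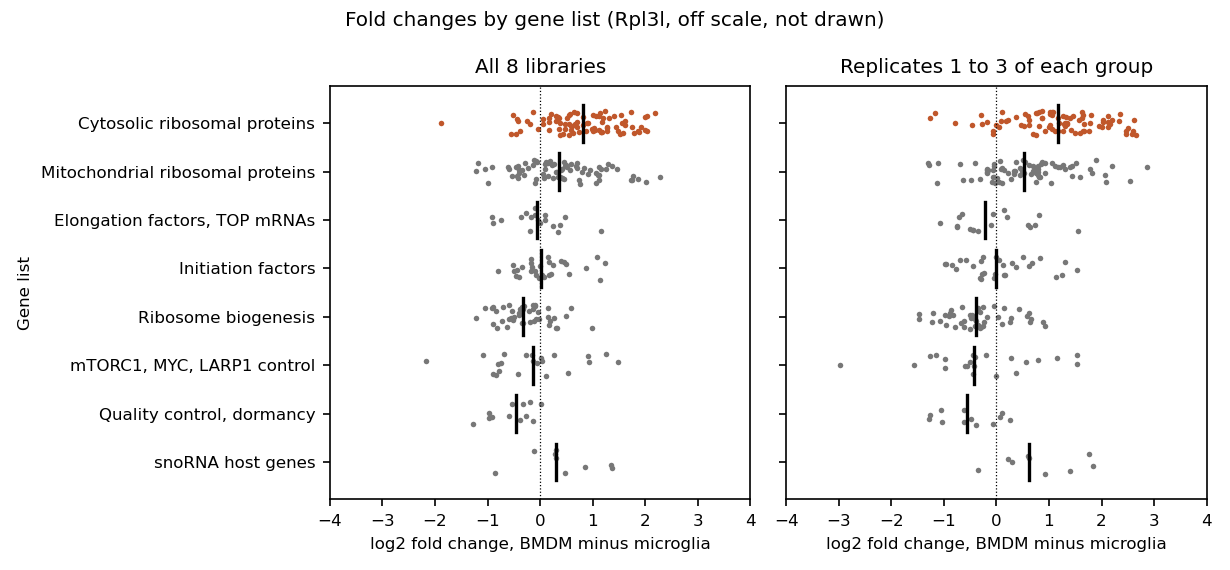
Log2 fold change (BMDM minus microglia) of each tested gene by list, with all 8 libraries (left) and with replicates 1 to 3 (right); each point is a gene, the black bar is the list's median, and Rpl3l is off scale and not drawn. The cytosolic ribosomal proteins have the highest medians, 0.82 and 1.17, followed on the left by the mitochondrial ones at 0.36, and the ribosome biogenesis genes lie below 0 at -0.33 and -0.38.

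Markers of other cells differed between the groups beside these values. The summed CPM of 9 T and NK cell markers was 4.67 to 19.4 in microglia and 25.8 to 126 in BMDM, with Cd3d, Cd4 and Nkg7 higher with replicates 1 to 3. For 6 neutrophil markers it was 2.00 to 12.3 in microglia and 47.2 to 108 in BMDM, with Ly6g at 0 in all microglia. S100a8 was called higher with all libraries, and all 4 neutrophil markers tested (Mmp8, Retnlg, S100a8 and S100a9) with replicates 1 to 3. For 6 B cell markers it was 7.14 to 18.1 and 11.2 to 28.5, with Cd79a at 0 in all microglia, and for 6 dividing-cell markers 289.5 to 399.7 and 203 to 311. For 7 astrocyte or glioma markers it was 189 to 258 in microglia and 30.1 to 119.7 in BMDM, with Nes and Slc1a3 lower with replicates 1 to 3. For 5 erythroid markers it was 110.3 to 248 and 27.6 to 161, with Hba-a1, Hba-a2 and Hbb-bs lower with replicates 1 to 3. For 6 dendritic cell markers it was 117 to 297 and 9.26 to 78.7. With replicates 1 to 3, Ccr7 and Xcr1 were higher and Siglech, which microglia also express, lower. With all libraries 1 of these dendritic cell markers was higher and 1 lower. Sums of oligodendrocyte (81.7 to 98.9 and 70.2 to 150.4) and endothelial markers (29.3 to 51.2 and 54.8 to 76.0) had 1 call with replicates 1 to 3, Mag, which was lower. The part of other cells in the ribosomal protein values was not tested.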

How the data were processed

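The authors deposited raw read counts per gene. Per the submitters' processing notes, the tools were STAR, featureCounts, cutadapt, FastQC and DESeq2 and the build was mm10; no version is given, and no source used here says whether counting used strand or reads with several matches. Counts were tested over the whole table with edgeR 4.0.16 (R 4.3.3; TMM, filterByExpr with a minimum count of 10, robust quasi-likelihood fits, Benjamini-Hochberg adjustment over 16467 genes, threshold 0.05). CPM values are TMM-scaled, and log2 CPM used a prior count of 2. SE values come from the F statistic. Positions and coding lengths are from GENCODE M21 (GRCm38), and start-site sequences from RefSeq GRCm38.p6. Library totals were 5890406 to 16659154 counts. Among libraries of 1 group, every pair differed by more than sampling noise. Scripts were tested on simulated data of 5 BMDM and 3 microglia libraries. There the edgeR test recovered 2.27% of genes changed by 1 on the log2 scale and 15.4% of those changed by 2. The 0 calls with all 8 libraries therefore do not show equal levels. Alternatives were DESeq2 1.42.0, limma-voom (limma 3.58.1) with and without quality weights, other scalings and filters, a replicate block, replicates 1 to 3, and each library left out. Named genes were those of the stalk and Rpsa, the 5 with the highest mean CPM, the 6 highest and lowest fold changes, the 5 highest and lowest under equal family totals, and the paralogs, with the other calls given as counts; a few members are counted but not reported singly here, and Rpl28, Rps27 and Rps6 were named after their values were seen. The members, lists and this rule were chosen with earlier results of these data known.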

Additional observations from a re-analysis of the deposited data

Results flagged for a closer look

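Rps25 in BMDM 2 stood apart from its group, at 929.3 CPM where the other 4 BMDM libraries had 409 to 533. It was the only such value among 25 groups of 5 libraries looked at, and chance alone flags about 1 in 20 groups.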

How the results depend on the processing

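The 0 members called higher with all 8 libraries became 12 with DESeq2, 14 with no filter on low counts, 1 with limma-voom, 43 with quality weights, and 46 with replicates 1 to 3 only, and ranged from 0 to 20 when single libraries were left out. The 0 called lower became 2 with quality weights and 1 with replicates 1 to 3, and stayed at 0 when single libraries were left out. RLE factors, library totals, the stricter filter (10 CPM in 3 libraries), leaving out Gm42418 and mitochondrial rRNA, and adding pseudogenes gave 0 in both directions. The median was -0.06 with libraries scaled to equal family totals and 0.59 to 1.22 in the other settings. With replicates 1 to 3, the 46 higher ranged from 23 to 47 and the 1 lower from 0 to 2 when single libraries were left out. Under equal family totals they became 7 and 12, and DESeq2 gave 59 and 2. These alternatives within replicates 1 to 3 were chosen after seeing the data. Of 454 values of 23 named members under alternatives, 5 changed sign: Rpl3 (0.09 with replicates 1 to 3, 0.11 with the replicate block), Rplp0 (-0.59 under equal family totals, -0.03 without microglia 3 and up to 0.27 without another library) and Rpl36al (-0.26 under equal family totals). The causes were not tested.

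The labels do not say that equal replicate numbers share a mouse, so the numbers were not taken as pairs. Correlations of deviations between equal numbers were 0.138, 0.0903 and 0.238. Each library correlated best with its own number, a hint of pairing from the data that was not tested further. With the replicate block 57 members were higher and 2 lower, among 1477 genes higher and 1767 lower of 16182. Without the block, 46 members were higher and 1 lower in the same libraries.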
